A study of Mus musculus with 8 samples.

Results

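Hemoglobin of the adult mouse is built from 2 alpha-globin genes, Hba-a1 and Hba-a2, and 2 beta-globin genes, Hbb-bs and Hbb-bt, and its heme is started by Alas2. These 5 genes, chosen by name from the 17921 genes of the count table, are described here in each cell type, in each numbered cluster of structural cells and in each mouse of a lung graft study. Almost all of their transcripts sat in few cells. Of 1736848 unique molecular identifiers (UMIs, each a counted transcript molecule) of the 4 globin genes, 1537519 (88.5%) were in 322 of the 20778 cells, which the authors placed in structural cluster 4 and named red blood cells. A further 194296 (11.2%) were in 97 cells that carried other cell type names, and 5033 (0.290%) were spread over 820 cells. The remaining 19539 cells, 95.5% of the 20456 cells outside cluster 4, held no globin UMI.

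The cells came from left lung grafts of 8 male mice, each 1 library, taken 1 month after orthotopic transplantation without immunosuppression. In the B6→B6 group (n = 5) donor and recipient were C57BL/6 (B6) mice, so that no mismatch separated graft and host. In the HLA→B6 group (n = 3) the donor was an HLA mouse, a commercial C57BL/6 strain with the transgene HLA-A2.1 for a human class I molecule, and the recipient was B6. Mice are numbered as in the sample column of the table of cells, in which HLA→B6 mice 1, 2 and 3 have cell names that begin with the numbers 2, 3 and 5. The grafts also hold cells of the host, and the counts do not tell donor red cells from host red cells. For each graft 10000 cells were loaded for sequencing of transcript 3′ ends, and 868 to 6544 cells per mouse are in the table, with a median of 1356 to 1948 UMIs per cell.

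A red blood cell is a sac of hemoglobin. Its precursors in the bone marrow transcribe the globin genes and the genes of heme synthesis at very high rates, then expel the nucleus, and the reticulocyte that enters the blood goes on translating a stock of stable messages until its ribosomes and mitochondria are cleared. Alpha and beta chains pair into a tetramer, and each chain holds a heme whose ring is begun in the mitochondrion by 5-aminolevulinate synthase, in erythroid cells the enzyme encoded by Alas2. Low levels of hemoglobin have been described in epithelial and endothelial cells of the lung too, and in droplet data globin messages of broken or attached red cells reach droplets of other cells. Globin genes are among the genes commonly used to measure free RNA in droplet data for the latter reason, and the authors named the 4 globin genes, but not Alas2, among theirs.

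The promoters show which genes are near copies. RefSeq sequences of the 250 bases before the gene start were read for all 5 genes on GRCm38.p6, where the GENCODE genes given further on start within these windows, upstream of the RefSeq starts, and 4 of them are given 5′ to 3′ on the strand of the gene. Capitals mark 4 short motifs of erythroid promoters found on either strand: GATAA (the letters read by GATA factors), CACCC (read by Klf1 and its relatives), CCAAT and TATAA, with matches on both strands run together where they overlap. The window of Hba-a2, chr11:32296242-32296491 on the plus strand, matched that of Hba-a1 in all 247 aligned bases and is not printed.
Hba-a1, chr11:32283422-32283671, plus strand: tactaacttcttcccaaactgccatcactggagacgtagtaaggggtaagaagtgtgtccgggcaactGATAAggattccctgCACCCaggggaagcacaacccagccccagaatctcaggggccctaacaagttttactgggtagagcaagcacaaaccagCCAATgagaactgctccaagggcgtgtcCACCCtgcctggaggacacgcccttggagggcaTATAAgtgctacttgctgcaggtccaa
Hbb-bs, chr7:103827929-103828178, minus strand: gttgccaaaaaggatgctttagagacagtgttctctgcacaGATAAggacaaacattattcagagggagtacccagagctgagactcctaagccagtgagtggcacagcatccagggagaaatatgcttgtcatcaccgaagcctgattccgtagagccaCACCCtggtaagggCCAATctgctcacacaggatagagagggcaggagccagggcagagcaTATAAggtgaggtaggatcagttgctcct
Hbb-bt, chr7:103813924-103814173, minus strand: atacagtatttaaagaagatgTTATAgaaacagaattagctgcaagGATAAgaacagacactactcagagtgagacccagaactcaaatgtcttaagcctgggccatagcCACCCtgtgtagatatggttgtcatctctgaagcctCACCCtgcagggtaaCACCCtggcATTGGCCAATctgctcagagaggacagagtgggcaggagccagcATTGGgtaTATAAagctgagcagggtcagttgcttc
Alas2, chrX:150547167-150547416, plus strand: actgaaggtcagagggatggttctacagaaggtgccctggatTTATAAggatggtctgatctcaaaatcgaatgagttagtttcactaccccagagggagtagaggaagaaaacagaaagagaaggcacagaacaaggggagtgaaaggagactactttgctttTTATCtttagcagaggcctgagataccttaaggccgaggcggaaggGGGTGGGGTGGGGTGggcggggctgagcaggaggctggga
All 4 globin windows held all 4 motifs, as did 318 (0.968%) of 32851 promoter windows of this length. The TATAA match next to the start lay 27 to 23 bases before it in Hba-a1, 29 to 25 in Hbb-bs and 28 to 24 in Hbb-bt. Alas2 lacked CCAAT in this window and held the other 3. Each motif on its own was common, since GATAA stood in 22.6% of all windows, CACCC in 52.0%, CCAAT in 33.8% and TATAA in 22.8%. A match describes the letters only.

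The promoters of Hbb-bs and Hbb-bt were identical at 77.4% of 239 aligned bases, fewer than those of the alpha-globin pair. In the GENCODE vM21 annotation of GRCm38, Hba-a1 (ENSMUSG00000069919.7) spans 32283511 to 32284465 and Hba-a2 (ENSMUSG00000069917.7) 32296489 to 32297298 of the plus strand of chromosome 11, each with 3 exons. Hbb-bs (ENSMUSG00000052305.6) spans 103826534 to 103828096 and Hbb-bt (ENSMUSG00000073940.3) 103812524 to 103813996 of the minus strand of chromosome 7, again with 3 exons each. Alas2 (ENSMUSG00000025270.13) has 11 exons between 150547375 and 150570638 on the plus strand of chromosome X. The transcripts of the alpha-globin genes were identical at 537 of 538 aligned bases (99.8%) and those of the beta-globin genes at 93.1%. Of all stretches of 91 bases in the last 300 bases of Hba-a1, 56.7% also occurred anywhere in the transcript of Hba-a2. For Hbb-bs in the transcript of Hbb-bt it was 24.3%. The sources used here do not say how reads that match both copies were counted, so the division of UMIs between Hba-a1 and Hba-a2, and to a lesser degree between Hbb-bs and Hbb-bt, is uncertain. The sum of a pair does not depend on how such reads were divided, but it would be lower if they were left out. The share of alpha-globin among globin UMIs could then shift too, which was not tested.

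Some cell barcodes occurred in more than 1 mouse. Of all cells, 1014 had such a barcode, and 4 libraries stood out, linked by 5 pairs that shared 39 to 160 barcodes, for which the cause was not tested. The linked libraries were B6→B6 mice 1, 2 and 3 with HLA→B6 mouse 2. The other 4, from B6→B6 mice 4 and 5 with HLA→B6 mice 1 and 3, are called unlinked. Of the 322 red cells 12 had a shared barcode. Both sets held mice of both groups, and differences within the sets are given beside the pooled ones.

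In the red cells the 4 globin genes took nearly all of the RNA counted. The median red cell had 5067.5 UMIs from 45 genes, and 98.0% of its UMIs were globin. At least 90% of the UMIs were globin in 259 cells (80.4%), and all 4 genes were present in 314 cells (97.5%). Of the rest, 7 cells lay between 25% and 50%, and 1 held 0 globin UMIs. Because the authors drew the clusters from these counts, the difference between cluster 4 and other cells is what placed the cells there and was not tested. For scale, an Hbb-bs UMI was found in 99.7% of red cells and in 4.04% of T cells, whose median was 1648 UMIs.

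The 4 globin genes stood in the same order in the red cells of every mouse. Hbb-bs came first with 696261 UMIs (45.3% of globin UMIs), followed by Hba-a1 with 409414 (26.6%), Hba-a2 with 302644 (19.7%) and Hbb-bt with 129200 (8.40%). Each transcript is tagged once at its 3′ end in this assay, so these UMI shares were compared without a correction for length. Hbb-bs made up 44.7%, 43.7%, 46.3%, 46.7% and 44.5% of globin UMIs in red cells of B6→B6 mice 1 to 5 and 47.3%, 44.2% and 43.8% in HLA→B6 mice 1 to 3. The 8 mice thus lay within a few percentage points of each other, and the groups overlapped.

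Alpha and beta chains were close to balance at the level of UMIs. The alpha-globin genes together made up 45.4%, 46.7%, 46.8%, 45.3% and 46.3% of globin UMIs in the B6→B6 mice and 45.6%, 48.3% and 47.2% in the HLA→B6 mice. The group means were 46.1% ± 0.727 (SD, n = 5) and 47.0% ± 1.33 (SD, n = 3), a difference of 0.949 percentage points (p = 0.232, exact permutation test over mice, two-sided). That test was run over all 56 splits of the 8 mice and could give no p below 0.0179. Taken within the library sets it was 1.31 points (exact permutation p = 0.125).

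The lesser copy of each pair was also even across mice. Hba-a2 made up 43.9%, 42.5%, 41.6%, 43.0% and 42.2% of alpha-globin UMIs in the B6→B6 mice and 42.3%, 41.9% and 42.5% in the HLA→B6 mice, a difference of -0.389 points between the group means (exact permutation p = 0.554). Hbb-bt made up 18.2%, 18.0%, 13.1%, 14.7% and 17.1% of beta-globin UMIs in the B6→B6 mice and 13.0%, 14.5% and 17.0% in the HLA→B6 mice. It varied more between mice than Hba-a2 did, and the groups overlapped, with a difference of -1.36 points (exact permutation p = 0.375). Within the library sets these differences were -0.461 points for Hba-a2 and -1.41 points for Hbb-bt.

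**Figure D1:**
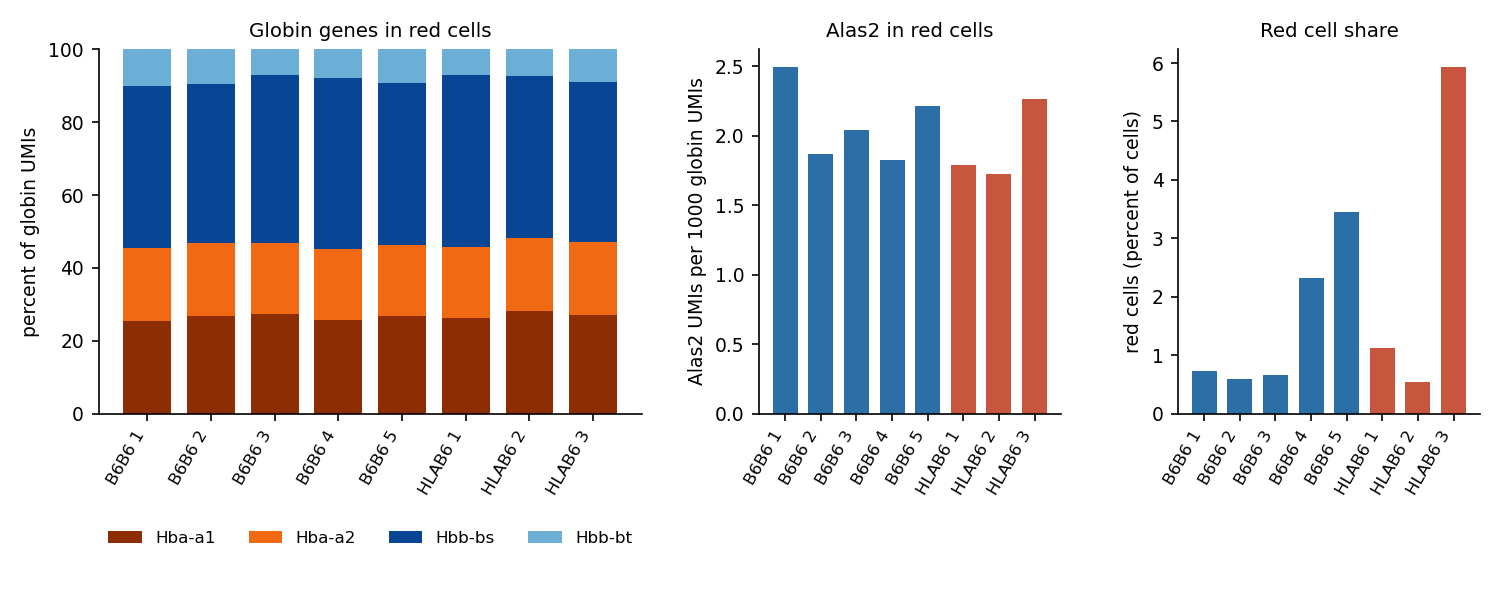
Composition of red cells (structural cluster 4) by mouse. The left panel stacks the share of globin UMIs of each gene (percent), the middle panel gives Alas2 UMIs per 1000 globin UMIs, and the right panel gives red cells as percent of all cells of the mouse, with B6→B6 mice in blue and HLA→B6 mice in red in the middle and right panels. The globin shares are nearly level over the 8 mice, with Hbb-bs from 43.7% to 47.3%, while the share of red cells runs from 0.547% to 5.94%.

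Alas2, which makes the first enzyme of heme synthesis in erythroid cells, was found in 297 of 322 red cells (92.2%) with 3135 UMIs in all. In T cells it was found in 0.907% of cells. Relative to globin it was scarce but steady, with 2.50, 1.87, 2.04, 1.83 and 2.22 Alas2 UMIs per 1000 globin UMIs in the red cells of B6→B6 mice 1 to 5 and 1.79, 1.73 and 2.26 in HLA→B6 mice 1 to 3. The median red cell held between 4.0 UMIs of Alas2 in HLA→B6 mouse 2 and 17.5 in B6→B6 mouse 5. These medians were high where the red cells were deep, since the median red cell had 8362 UMIs in B6→B6 mouse 5 and 2888.5 in HLA→B6 mouse 2.

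Other genes of the red cell were checked against the name of cluster 4. Of 14 listed membrane and cytosol genes in the table, 13 had a UMI in red cells, and 9 had a higher level (CPM, UMIs scaled to a common total) in red cells pooled than in any other population. Bpgm, which makes the 2,3-bisphosphoglycerate that lowers the oxygen affinity of hemoglobin, was found in 76.1% of red cells against 5.60% of T cells. Slc4a1, the band 3 anion exchanger, was found in 13.7% of red cells. Gypc had no UMI in red cells. Defining markers of the red cell were thus present in cluster 4, at far lower levels than globin.

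Genes of late red cell maturation and erythroid transcription factors were looked at next. Of 10 maturation genes in the table, all had a UMI in red cells and 8 had their highest level there. Mkrn1 was found in 79.2% of red cells, Ube2l6, a ubiquitin-conjugating enzyme, in 78.0% and Bnip3l, which directs the clearance of mitochondria, in 67.1%. Less frequent were Slc25a37 in 25.5%, Trim10 in 15.2%, Tspo2 in 10.6% and Hemgn in 2.80%. The median share of red cells over the 10 genes was 42.7%, and over 6 erythroid transcription factors 0.466%, with no test between the lists. Of these 6 erythroid transcription factors none had its highest level in red cells. Klf1, the activator of the beta-globin promoter, had 0 UMIs in them, Gata1 was found in 1 cell and Lmo2 in 7.14%. Most of the few Gata1 and Nfe2 UMIs of the data lay elsewhere, with the highest level of both genes in structural cluster 7.

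Of the heme pathway, the first and the last erythroid steps were seen. Fech, the ferrochelatase that puts iron into the ring, was found in 60.2% of red cells, whereas the other 10 heme synthesis genes of the list were found in at most 7.14% of them, the highest being Urod. Alas1, the form of the first enzyme used by other cells, was found in 2.17% of red cells, and Tfrc, the receptor that brings in iron, had 0 UMIs. Of embryonic and minor globin genes, Hbb-bh1 had 0 UMIs in red cells, while the theta-globin genes Hbq1a and Hbq1b had 23 and 37 and were at their highest there. Genes that clear heme and hemoglobin were at their highest in other cells, such as Hmox1, Fth1 and Ftl1 in alveolar macrophages. The clearance gene found in most red cells was Ftl1, the ferritin light chain, in 21.4%.

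Outside the 5 genes, the most abundant genes in red cells by mean CPM over mice were Malat1 (1985), Ubb (1331), Gpx1 (1208), Mkrn1 (1032) and Bpgm (998), against 417951 for Hbb-bs and 1882 for Alas2. Malat1, a nuclear RNA, ran from 0.0 CPM in B6→B6 mouse 5 to 7387 in B6→B6 mouse 3, with an SD over mice of 2366. It was found in 16.5% of red cells and in 98.8% of T cells. Of 27 markers of other cells, between 0 and 15 had a UMI in the red cells of a mouse. Those at 0 UMIs in all red cells were Cd3e, Cd79a, Ms4a1, Mzb1, Ncr1, Fcer1a, Col1a1, Col1a2 and Epcam, while the neutrophil genes S100a8 and S100a9 had 767 together. All 27 markers made up between 0.0% of the non-globin UMIs of red cells in B6→B6 mouse 5 and 4.72% in HLA→B6 mouse 1. The part of RNA from other cells in the red cell profiles was not tested.

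The red cells of the mice differed in what they held beside globin. The median red cell had 174, 200.5, 235.5, 31 and 48 genes in B6→B6 mice 1 to 5 and 49, 241 and 41 in HLA→B6 mice 1 to 3. The 4 linked libraries, with 174 to 241 genes, did not overlap the 4 unlinked ones, with 31 to 49. The same division was seen in the median globin share of a red cell, which was 79.4% to 94.4% in the linked and 98.0% to 98.7% in the unlinked libraries, and in non-globin UMIs, with medians of 321 to 530 and 63 to 169. Depth of the red cells overlapped, with medians of 2888.5 to 6843 UMIs in the linked and 2985 to 8362 in the unlinked libraries. Globin composition and Alas2 per globin overlapped as well.

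**Figure D2:**
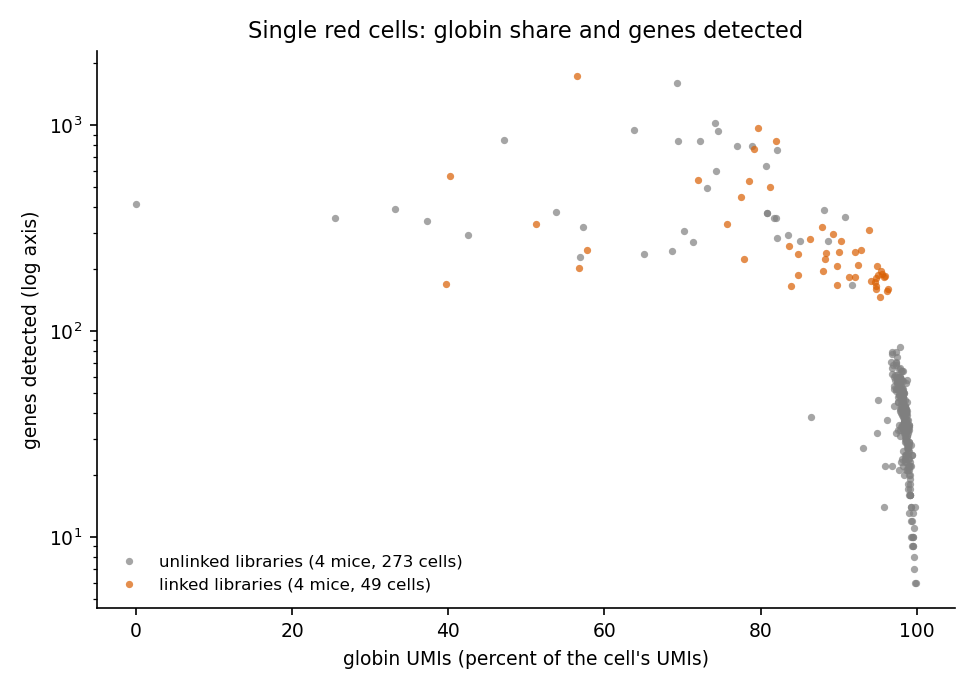
Each of the 322 red cells by its globin share (percent of the UMIs of the cell, x axis) and the number of genes detected (y axis, log scale), coloured by library set. Most red cells of the unlinked libraries gather at 98% globin, with medians of 31 to 49 genes per mouse, while those of the linked libraries lie higher, with medians of 174 to 241.

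The share of red cells varied widely within both groups. Red cells were 0.739%, 0.593%, 0.657%, 2.32% and 3.46% of the cells of B6→B6 mice 1 to 5 and 1.13%, 0.547% and 5.94% in HLA→B6 mice 1 to 3. The 2 groups overlapped, with means of 1.55% ± 1.28 (SD, n = 5) and 2.54% ± 2.96 (SD, n = 3) and a difference of 0.986 percentage points (exact permutation p = 0.554). Without HLA→B6 mouse 3 the difference was -0.714 points, and within the library sets it was 0.266. How many red cells a graft yields depends on the blood left in it and on cell preparation, for which no measure was at hand. The 4 linked libraries had the lowest shares of the 8.

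Their globin messages formed a pool that ranged still more widely. Globin UMIs of red cells were 1.99%, 2.01%, 1.18%, 4.38% and 11.4% of all UMIs in B6→B6 mice 1 to 5 and 2.05%, 0.598% and 18.1% in HLA→B6 mice 1 to 3. HLA→B6 mouse 3 and B6→B6 mouse 5 stood above the other 6 mice.

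Cells with globin outside cluster 4 were divided into 2 classes by a threshold. In the 97 globin-rich cells at least 10% of the UMIs, and at least 10 UMIs, were globin. Their median was 1327 globin UMIs, 44.8% of the cell, with 787 genes detected. In the 820 low cells, defined as all others with a globin UMI, the median was 3 globin UMIs, 0.255% of the cell. Of the low cells, 265 had 1 globin UMI, 473 had 2 to 9, 76 had 10 to 99 and 6 had 100 or more. By globin share the classes meet at the threshold, with the highest low cell at 9.19% and the lowest rich cell at 10.2%, and 94 of the 97 rich cells had 100 globin UMIs or more.

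Summed over mice, the globin-rich cells held globin in proportions within 2 percentage points of those of red cells. Hbb-bs made up 44.2% of their globin UMIs, Hba-a1 28.03%, Hba-a2 20.3% and Hbb-bt 7.51%. All but 3 of them (96.9%) held alpha- and beta-globin together, and 65 held all 4 genes. Alas2 was found in 62 (63.9%) at 2.61 UMIs per 1000 globin UMIs, against 2.04 in red cells. By mouse, alpha-globin made up 50.5%, 49.5%, 49.2%, 44.4% and 48.1% of the globin UMIs of rich cells in the B6→B6 mice and 53.7%, 51.6% and 39.3% in the HLA→B6 mice. In 7 of 8 mice this lay outside the 45.3% to 48.3% of red cells.

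Rich cells carried names of many cell types and differed in how far they held markers of them. They made up 26 of 136 cells in structural cluster 6 and 21 of 31 cells in structural cluster 10. In cluster 6, T cell markers were found in 84.6% of rich and 70.9% of the other cells. In cluster 10, B cell markers were found in 21 of 21 rich and 10 of 10 other cells. Endothelial markers were less frequent in rich cells of these 2 clusters, with 26.9% against 86.4% in cluster 6 and 6 of 21 against 9 of 10 in cluster 10. The 2 rich cells of structural cluster 3 held 0 fibroblast and 0 endothelial markers, found in 41.4% and 53.4% of its other cells. Other populations differed in direction. Endothelial markers were in 7 of 7 rich cells against 97.5% of the others in structural cluster 0, and 6 of 6 against 91.6% in cluster 1. In T cells they were in 2 of 8 against 14.1%, and in monocytes in 0 of 5 against 17.7%. There were also 13 rich alveolar macrophages, of which the median had 4281 UMIs and 45.6% globin, against a median of 2784 UMIs in the other alveolar macrophages. The caller Scrublet marked 5 of the 97 as doublets, a share of 5.15% against 1.23% of all cells and 0 of the 322 red cells. In structural cluster 6 it marked 47 cells and 0 of the 26 rich ones, and in alveolar macrophages 23 cells and 0 of the 13 rich ones. A shared barcode was found in 3 of the 97, and each of these 3 barcodes belonged to a red cell of another mouse. Whether rich cells are droplets with a red cell and another cell was not tested beyond these values.

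Numbers of rich cells were small in each mouse. There were 4, 2, 17, 23 and 5 in the B6→B6 mice and 24, 14 and 8 in the HLA→B6 mice. These were 0.426%, 0.149%, 0.703%, 0.575% and 0.597% of the cells outside cluster 4 in the B6→B6 mice and 0.371%, 0.428% and 0.683% in the HLA→B6 mice. The difference of the group means was 0.004 percentage points (exact permutation p = 0.982), and within the library sets it was -0.0285.

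The low cells did not keep the proportions of red cells. Of their 5033 globin UMIs, Hbb-bs made up 68.3%, Hba-a1 12.9%, Hba-a2 7.65% and Hbb-bt 11.1%, so that alpha-globin, nearly level with beta-globin in red cells, was far the lesser. A single globin gene was seen in 667 of the 820 (81.3%). Beta-globin alone was seen in 732 cells, alpha-globin alone in 35, and both in 53 (6.46%). Alas2 was found in 35 low cells, at 7.55 UMIs per 1000 globin UMIs.

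The mice differed in which globin gene the low cells held. Alpha-globin made up 8.95%, 20%, 4.23% and 2.35% of the globin UMIs of low cells in B6→B6 mice 2 to 5 and 72.2%, 64.6% and 11.3% in HLA→B6 mice 1 to 3, while B6→B6 mouse 1 had only 11 such UMIs. The groups overlapped, and in the red cells of the same mice alpha-globin was 45.3% to 48.3%. Hba-a1 had 5, 17, 6, 13 and 4 UMIs in low cells of the B6→B6 mice and 167, 291 and 148 in those of the HLA→B6 mice. These Hba-a1 counts did not overlap, whereas those of Hba-a2 (0 to 70 against 29 to 220), Hbb-bs and Hbb-bt did. All are raw counts, not scaled to the cells or UMIs of a mouse. They were not among the quantities chosen for a test. Few cells carried much of the Hba-a1 count in the first 2 HLA→B6 mice. In HLA→B6 mouse 1 a single B cell held 75 Hba-a1 UMIs and a single monocyte 42. In HLA→B6 mouse 2 there were 179 in 4 T cells and 75 in 1 plasma cell. In HLA→B6 mouse 3 they were spread over clusters and types, with 69 in 75 cells of structural cluster 0.

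Within a mouse the proportion also differed between cell types. In B6→B6 mouse 4, 232 low T cells held 774 UMIs of Hbb-bs, 116 of Hbb-bt and 0 of alpha-globin, which allows a share of up to 0.337% alpha-globin, where the red cells of that mouse had 45.3%. In the same mouse 47 low cells of the type leukocyte held 8.96% alpha-globin in 134 UMIs, 74 low cells of structural cluster 1 held 1.28% in 235, and Hbb-bs lay between 84.3% and 88.5% in all 3 populations. In HLA→B6 mouse 3, Hbb-bs made up 70.2% of 473 UMIs in low cells of structural cluster 0, 71.8% of 415 in cluster 1, 85.5% of 193 in B cells and 46.6% of 73 in cluster 2. In the T cells of HLA→B6 mouse 2 it was 40.2% of 537, close to the 44.2% of its red cells. The sources used here do not say whether the deposited counts were taken before or after the authors' removal of free RNA, which uses these 4 genes, and its part in these proportions was not tested.

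**Figure D3:**
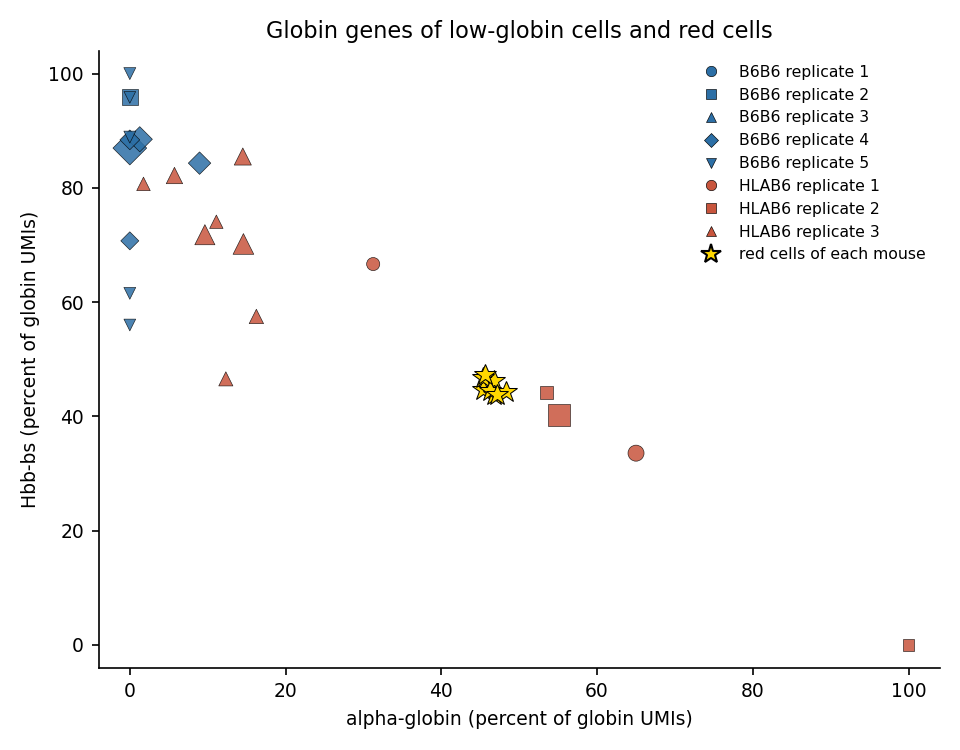
Globin genes of low cells by population and mouse. Each blue (B6→B6) or red (HLA→B6) point is 1 population of 1 mouse with at least 3 low cells and 20 globin UMIs, placed by the alpha-globin share (x axis) and Hbb-bs share (y axis) of its globin UMIs in percent, with larger points for more UMIs, and stars mark the red cells of the 8 mice. The stars lie together at 45.3% to 48.3% alpha-globin, while most points lie to the left of them, below 20%.

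Across populations, globin levels outside the red cells spanned several orders of magnitude and their order was not firm. Per mouse with at least 10 cells, globin made up 92.5% ± 6.04 (SD, n = 6 mice) of the UMIs in structural cluster 4 and 18.3% ± 6.56 (n = 3) in structural cluster 6. Alveolar macrophages came next with 0.547% ± 0.668 (n = 8), then structural cluster 1 with 0.274% ± 0.426 (n = 8). Structural clusters 3 and 7, leukocytes, structural cluster 0 and monocytes had means of 0.159%, 0.144%, 0.130%, 0.111% and 0.103%. T cells had 0.0394% ± 0.0622 (n = 8), myeloid cells 0.0246% ± 0.0544 (n = 8) and B cells 0.010% ± 0.0150 (n = 8). Cluster 4 exceeded cluster 6, and cluster 6 alveolar macrophages, in all 3 mice that had both. Below these, neighbours in the order changed places between mice, as alveolar macrophages were above cluster 1 in 5 mice and below it in 3. Structural cluster 10 is not in this order, since it had at least 10 cells in 0 mice. Pooled over mice its 31 cells held 49.2% globin, against 0.285% in alveolar macrophages. Mast cells had a mean of 0 in the 3 mice with at least 10 of them, but 2.56% pooled over all mice.

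**Figure D4:**
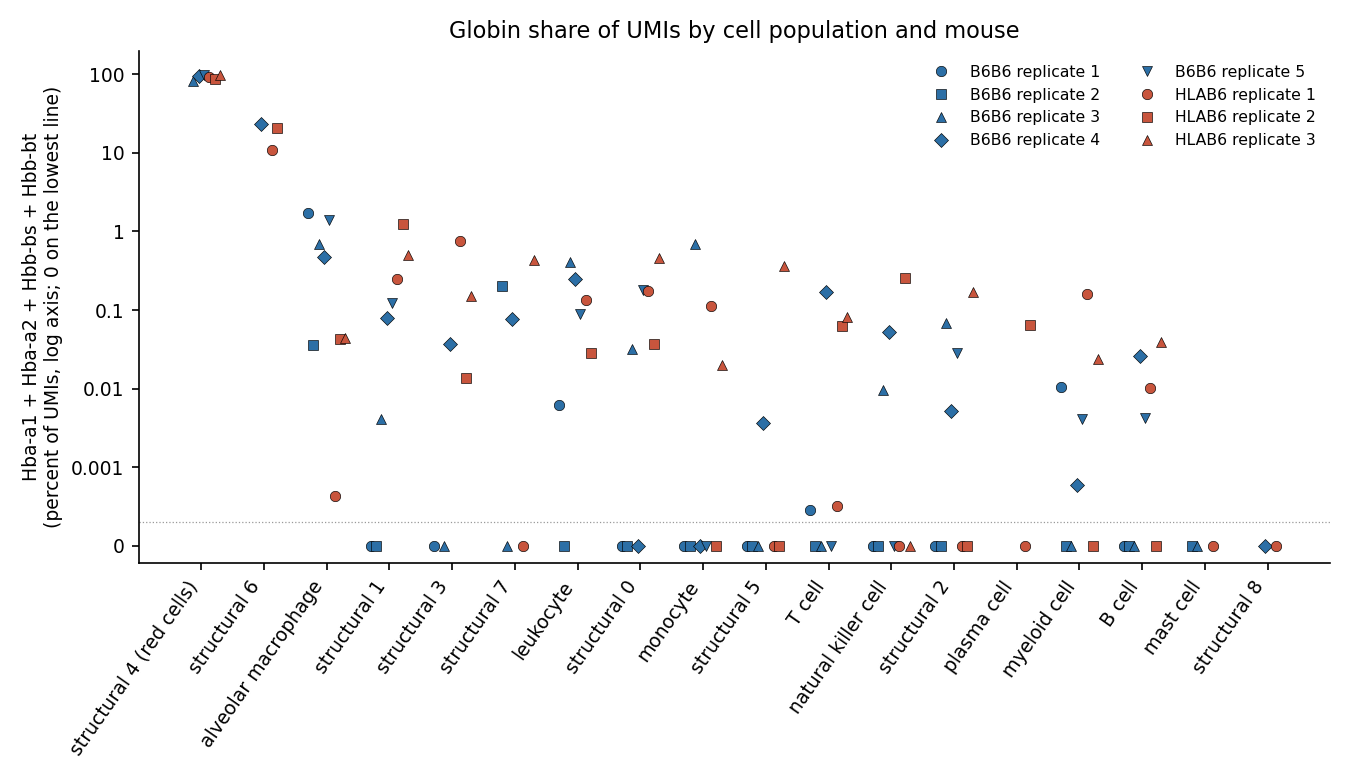
Globin share of UMIs (sum of the 4 genes, percent, log axis with 0 on the lowest line) in every cell type and structural cluster with at least 10 cells in more than 1 mouse. There is 1 point per such mouse, B6→B6 in blue and HLA→B6 in red, and populations are ordered by the mean over mice. Red cells lie at 82.5% to 97.8%, structural cluster 6 at 10.9% to 23.3%, and all other points at 1.70% or less, many of them at 0.

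Rich cells set many of these levels. In alveolar macrophages globin was 1.70%, 0.0361%, 0.685%, 0.478% and 1.39% of UMIs in B6→B6 mice 1 to 5 and 0.000426%, 0.0429% and 0.0439% in HLA→B6 mice 1 to 3. The 4 high B6→B6 mice had 2, 2, 5 and 2 rich cells. Without rich cells the mean over mice was 0.0125%, and in structural cluster 6 it was 0.0311% against 18.3% with them. In monocytes the 0.693% of B6→B6 mouse 3 came from 2 rich cells of 183, and all its other monocytes had 0 globin UMIs.

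The share of cells with a globin UMI differed strongly between cell types of the same library. In HLA→B6 mouse 3 it was 78.1% of 96 cells of structural cluster 0 (95% exact binomial interval 68.5 to 85.9) and 65.3% of 118 cells of cluster 1 (55.9 to 73.8). It was 10.3% of 291 B cells (7.06 to 14.4), 4.33% of 231 T cells and 0 of 56 natural killer cells, which allows a share of up to 5.36%. Depth ran the other way, with medians of 909.5 UMIs in cluster 0, 832.5 in cluster 1, 1823 in B cells and 1981 in natural killer cells. Thinned to 500 UMIs the 4 populations had shares of 69.1%, 52.5%, 7.35% and 0.0%. These intervals cover counting error only.

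B6→B6 mouse 4 showed another order. There 63.5% of 74 leukocytes (51.5 to 74.4) had a globin UMI, 16.1% of 1470 T cells (14.2 to 18.0) and 12.5% of 602 cells of structural cluster 1 (9.93 to 15.4). In contrast 0 of 71 cells of cluster 0 had one, which allows up to 4.23%, and 0 of 148 monocytes, which allows up to 2.03%. In B6→B6 mouse 2, 44 of 284 alveolar macrophages (15.5%) had a globin UMI and 0 of 341 T cells had one. The shares thus differed between types of the same library in these 3 mice. The part of free RNA, and of its removal by the authors, in these shares was not tested. Over all cells outside cluster 4 the share was 0.745%, 3.65%, 1.08%, 10.3% and 6.09% in B6→B6 mice 1 to 5 and 0.541%, 1.59% and 24.1% in HLA→B6 mice 1 to 3.

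Alas2 was also found outside the red cells. With rich cells left out, 0.534%, 0.448%, 0.708%, 0.729% and 4.32% of the cells of B6→B6 mice 1 to 5 and 0.217%, 0.184% and 6.87% of those of HLA→B6 mice 1 to 3 held an Alas2 UMI. HLA→B6 mouse 3 and B6→B6 mouse 5, which had the largest red cell pools, were again above the rest. In HLA→B6 mouse 3 Alas2 was found in 23 of 291 B cells (7.90%, 5.08 to 11.6), 10 of 115 monocytes (8.70%, 4.25 to 15.4), 12 of 231 T cells (5.19%, 2.71 to 8.90) and 2 of 56 natural killer cells (3.57%, 0.435 to 12.3). The intervals of these 4 types overlapped, and 26 of 305 structural cells outside cluster 4 (8.52%) held Alas2 too. In B6→B6 mouse 5 it was found in 4.47% of 358 B cells, 7.02% of 57 natural killer cells and 2.04% of 147 T cells, but in 0 of 54 monocytes. In HLA→B6 mouse 3 most cells of the 4 types with Alas2 had no globin UMI, as in 21 of the 23 B cells and 10 of the 10 monocytes. Of the 26 structural cells, 4 had none. In all, 158 cells outside cluster 4 held Alas2 without a globin UMI, although globin UMIs outnumbered Alas2 UMIs in red cells by 1000 to 2.04. The authors' removal of free RNA uses the globin genes but not Alas2, and its part in this was not tested.

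Whether the globin level outside followed the red cell pool of the same library was examined over the 8 mice. Globin as a share of UMIs outside cluster 4 was 0.457%, 0.215%, 0.780%, 0.747% and 1.54% in B6→B6 mice 1 to 5 and 0.257%, 0.244% and 0.427% in HLA→B6 mice 1 to 3. It was not clearly related to the pool, with Pearson r = 0.369 (exact permutation p = 0.332, n = 8) and Spearman rho = 0.286 (exact permutation p = 0.501). Without the 2 mice farthest from the median pool, B6→B6 mouse 5 and HLA→B6 mouse 3, r was 0.431. With rich cells left out r was 0.843 (exact permutation p = 0.0219, adjusted over 5 relations 0.0364) and rho 0.714 (exact permutation p = 0.0576). For the share of low cells r was 0.885 (exact permutation p = 0.0195, adjusted 0.0364) and for the share of cells with Alas2 0.989 (exact permutation p = 0.00246, adjusted 0.0123). By rank these relations did not pass after adjustment, with rho 0.714 (adjusted permutation p = 0.144), 0.643 (0.160) and 0.762 (0.144). Without the same 2 mice these were 0.769 (exact permutation p = 0.132), 0.862 (0.0944) and 0.537 (0.297), and rho was 0.371, 0.2 and 0.429. The relation with Alas2 rested on those 2 mice, and in the remaining 6 none of the 3 passed the threshold. Each of the library sets holds 4 mice, too few for a correlation of its own.

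**Figure D5:**
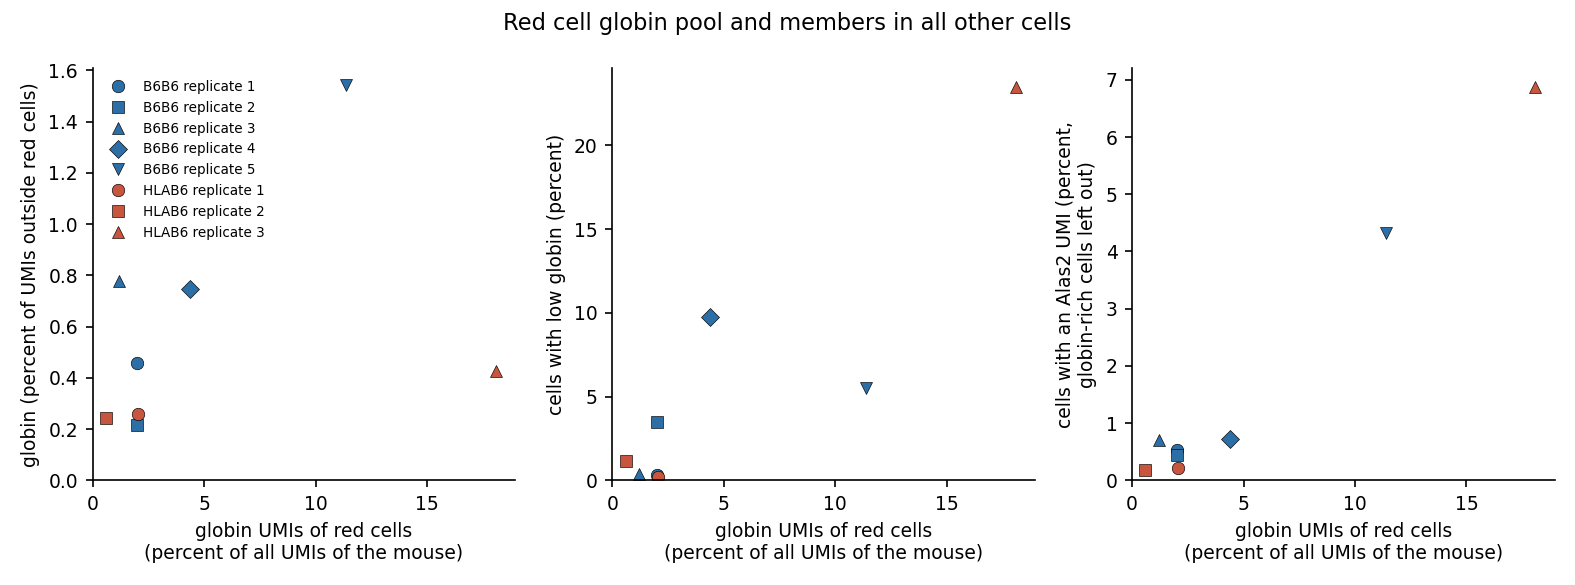
Red cell globin pool (x axis, globin UMIs of red cells as percent of all UMIs of the mouse) against 3 measures in all other cells, 1 point per mouse, B6→B6 in blue and HLA→B6 in red. The y axes give globin as percent of UMIs outside red cells, low cells as percent of cells, and cells with an Alas2 UMI as percent of cells. The 2 mice with pools of 11.4% and 18.1% stand apart from the other 6 along the x axis, and they lead the Alas2 panel with 4.32% and 6.87%.

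The groups were then compared. The globin share outside red cells was 0.748% ± 0.500 in the 5 B6→B6 mice and 0.309% ± 0.102 (SD) in the 3 HLA→B6 mice, a difference of -0.439 percentage points (exact permutation p = 0.196). Within the library sets it was -0.522 points (exact permutation p = 0.125). With rich cells left out the difference turned to 0.0195 points (exact permutation p = 0.304).

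For single genes, UMIs were summed per mouse and population and tested by edgeR (quasi-likelihood) in 9 populations, with adjusted p under 0.05 over all genes of a population as the threshold. The members passed the filter on low counts in 23 gene-by-population tests, and 0 of these were called, where 2.01% of all 39663 tests were. Of the genes tested, 0.117% were called in B cells, 0.0698% in T cells, 0.023% in monocytes and 0.908% in structural cells outside cluster 4, with members tested in each. At an unadjusted p under 0.05 there were 5, beside 3764 of all 39663 tests. DESeq2 also called 0, with 4 at an unadjusted p under 0.05 beside 2817 of all tests.

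The 4 globin genes came nearest to the threshold in alveolar macrophages, where 12.3% of tested genes were called. On the log2 scale of the fit, HLA→B6 minus B6→B6, Hba-a1 was at -5.15 (SE 1.70, edgeR adjusted p = 0.0706), Hba-a2 at -5.55 (SE 1.71, edgeR adjusted p = 0.0570), Hbb-bs at -4.03 (SE 1.29, edgeR adjusted p = 0.0629) and Hbb-bt at -5.24 (SE 1.73, edgeR adjusted p = 0.0709). Rich alveolar macrophages numbered 2, 0, 2, 5 and 2 in the B6→B6 mice and 0, 2 and 0 in the HLA→B6 mice. With rich cells left out only 1 member, Hbb-bs, passed the filter on low counts, at 0.05 (edgeR adjusted p = 0.990). The other globin genes passed that filter only with rich cells kept. With rich cells kept, leaving out B6→B6 mouse 2, or taking the library set as a block, brought all 4 past the threshold. Of all genes tested in alveolar macrophages, 741 of 5715 (13.0%) and 1254 of 5798 (21.6%) were called in these settings. Leaving out HLA→B6 mouse 1 brought Hbb-bs past it, beside 9.05% of all genes. Leaving out B6→B6 mouse 3 did so for Hbb-bt, beside 10.6%. Of the myeloid cells 12 held a globin UMI, and 1 rich cell of HLA→B6 mouse 1 held 97.5% of their globin UMIs. Hbb-bs in myeloid cells was at 5.86 (SE 1.47, edgeR adjusted p = 0.246), and at 6.38 (edgeR adjusted p = 0.0214) without HLA→B6 mouse 2. Without that mouse 5 of all 5023 genes tested in myeloid cells were called. With rich cells left out 0 members passed the filter in myeloid cells. In structural cells outside cluster 4 all 5 members passed the filter, at -2.24 to -1.77 with edgeR adjusted p of 0.595 or above.

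In the red cells themselves, with 3 mice of each group having at least 10, Hbb-bs was at 1.23 (SE 1.22) and Alas2 at 1.37 (SE 1.37) on the log2 scale, both with an edgeR adjusted p of 1.00. The median of all 232 genes tested there was at 0.54. With DESeq2 it was at -0.15, with Hbb-bs at 0.11 and Alas2 at 0.07. With library sizes and TMM taken without globin genes it was at 0.59, with Hbb-bs at 1.83 and Alas2 at 2.06. Without HLA→B6 mouse 3 edgeR put Hbb-bs at -0.02 and Alas2 at -0.20.

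Of the genes on the fixed lists, 155 gene-by-population tests gave 2 calls up and 0 down, beside 797 calls in all 39663 tests. Both were in alveolar macrophages, where 19 list genes were tested and 713 of all 5798 genes (12.3%) were called, so the lists stood near the background. Alveolar macrophages take up particles and red cells that reach the airspaces. Fth1, the ferritin heavy chain, rose by 1.30 (SE 0.322, edgeR adjusted p = 0.0270) and Hmox2, a heme oxygenase, by 0.89 (SE 0.226, edgeR adjusted p = 0.0291). Of 8 clearance genes tested there the median log2 change was 0.12, beside -0.03 over all genes, and the other 6 did not pass. There were 0 calls on the lists in alveolar macrophages without B6→B6 mouse 3, without B6→B6 mouse 4 or without HLA→B6 mouse 2, and 1 without B6→B6 mouse 1 or mouse 5. With edgeR no test of another list passed, as for 5 heme synthesis genes in alveolar macrophages with a median of 0.11. DESeq2 called 5 list genes up, of which 2 were in alveolar macrophages, 2 in T cells and 1 in myeloid cells, and 0 down.

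Over 115 sums per mouse and population, genes whose level was among those most like that of the 4 globin genes summed were Alas2 (Pearson r = 0.721 of log2(CPM + 1)), Paqr9 (0.575), Slc4a1 (0.565), Trim10 (0.529) and Tspo2 (0.524). Slc4a1 is a membrane protein of the red cell, and Trim10 and Tspo2 are on the list of late maturation. The correlations of the globin genes with their own sum were 0.944 for Hbb-bs, 0.884 for Hba-a1, 0.855 for Hbb-bt and 0.833 for Hba-a2. The points share libraries, and most hold few or no UMIs of these genes, so the values describe a contrast between red cells and the rest.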

How the data were processed

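Each of the 8 libraries is 1 mouse and was grouped by the labels. The authors made the deposited counts, whole UMIs per gene and cell with no normalization, with Cell Ranger on mm10 (GRCm38), left out barcodes with few UMIs and rare genes, clustered the cells with Seurat and describe removal of free RNA with SoupX. The sources used here do not say whether the deposited counts are from before or after that step. The deposited names and clusters were used as given, and 0 columns of values were left unused. All cells were kept, and Scrublet (expected rate 0.06) marked 256 as doublets.

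Shares were compared over mice by exact permutation, two-sided. Sums per mouse and population (at least 10 cells in a mouse, at least 2 such mice per group) were compared with edgeR 4.0.16 (quasi-likelihood, TMM, filterByExpr with a minimum count of 10, Benjamini-Hochberg), and with DESeq2 1.42.0 as an alternative. On simulated T cell sums of 6894 genes edgeR called 94.8% of genes changed 4-fold and 39.2% of those changed 2-fold. The simulation used the spread of T cell genes, so these rates do not carry over to members with larger standard errors. Shares at equal depth are expected values at 500 UMIs per cell. Intervals are exact 95% binomial, and a count of 0 was read as at most 3. Totals ran from 1669076 to 12445769 UMIs per mouse. Python 3.11.15 and R 4.3.3 were used. Named are the 5 members, the list genes, the 5 genes most like summed globin and the 5 most abundant others in red cells. Members and lists were chosen with earlier results of these data known. Alternatives were other denominators, thresholds, filters, depths and blocks, each mouse left out in turn, and cells with shared barcodes left out. The relations of the pool with low cells and with Alas2 were added after the data were seen. Tent5c is listed as Fam46c. Proteins were not used here. Some genes that this rule names are not reported here.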

Additional observations from a re-analysis of the deposited data

Results flagged for a closer look

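In 6 of 17 sets of B6→B6 values examined by population, 1 mouse stood apart from the others by Dixon's criterion at the 95% level. Chance alone meets it in about 1 of 20 sets of normally distributed values, a form that sets with many values at or near 0 do not have. Globin was 0.0260% of UMIs in the B cells, 0.0529% in the natural killer cells, 0.170% in the T cells and 0.00367% in structural cluster 5 of B6→B6 mouse 4. It was 0.693% in the monocytes of B6→B6 mouse 3 and 0.182% in structural cluster 0 of B6→B6 mouse 5. In each of these sets most of the other B6→B6 mice were at or near 0. Few cells with globin set the mouse apart in some sets, with 2 B cells and 1 natural killer cell in B6→B6 mouse 4. In the T cells of that mouse 236 of 1470 cells held globin.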

How the results depend on the processing

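No group difference in a share passed the threshold under any alternative run. The difference in red cell share turned to -0.949 percentage points with structural cells as the denominator. The difference in globin outside red cells turned to 0.0195 with rich cells left out and to 0.212 with equal weight for each population. That in rich cells turned to -0.0267 without cells of shared barcodes, -0.0285 within library sets and -0.164 at 25% and 25 UMIs. Hbb-bs in alveolar macrophages turned to 0.0519 with rich cells left out. The correlation with the pool, not past the threshold at r = 0.369, passed it with rich cells left out (0.843), with low cells as the measure (0.885) and with Alas2 (0.989). Called member tests, 0 of 23, became 17 of 44 with no filter on low counts and 4 of 23 with the library set as a block. Calls over all genes, 797 of 39663, became 1726 of 127354 and 1388 of 39663.

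With each mouse left out in turn, the difference ranged from -0.714 to 1.98 points for red cell share, -0.572 to -0.241 for globin outside, -0.0904 to 0.0654 for rich cells, -0.655 to -0.0654 for Hba-a2 of alpha-globin, -2.46 to -0.458 for Hbb-bt of beta-globin and 0.321 to 1.64 for alpha-globin of globin. Rich cells turned negative without B6→B6 mouse 1, B6→B6 mouse 2 or HLA→B6 mouse 3. Called member tests ranged from 0 to 4 and calls over all genes from 209 (without HLA→B6 mouse 2) to 944. In red cells Hbb-bs ranged from -0.0202 to 2.37 and Alas2 from -0.202 to 2.40. The cause of these shifts was not tested.

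Replicate numbers 1 to 3 occur in both groups but did not pair the mice, since the deviations of mice of the same number correlated at 0.362, 0.428 and -0.170, and 1 of the 3 HLA→B6 mice correlated best with its own number. With the replicate block 4 of 18 member tests and 451 of all 39431 tests were called, and red cells could not be fitted, as only 1 number had at least 10 in both groups. Depth limits values near 0, where 1 UMI decides whether a cell counts.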
